A study of Mus musculus with 16 samples.

Results

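The genes described are 10 immediate early genes of mouse adipose tissue: the Fos family (Fos, Fosb, Fosl1 and Fosl2), the Jun family (Jun, Junb and Jund) and 3 Egr genes (Egr1, Egr2 and Egr3). They were found by matching the transcript accession of every array probe to a RefSeq gene. All 10 had a probe, 13 probes in all, out of 19096 named genes on the array, and all 10 had a probe that passed the filter on dim signals described with the processing. RNA was compared between AdipoKO mice, in which the glucocorticoid receptor (GR, gene Nr3c1) was knocked out in adipose tissue, and control mice (CTL, called wild type in the series design), in brown (BAT) and white (WAT) adipose tissue of females. The groups were AdipoKO_BAT, CTL_BAT, AdipoKO_WAT and CTL_WAT, each with 4 arrays. The labels used here do not give the Cre driver, the allele, the strain, the age, the white depot or any treatment.

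Fos and Jun proteins pair through their leucine zippers to form the transcription factor AP-1, and Egr proteins bind GC-rich sites through zinc fingers. Transcription of most of these genes starts within minutes of a growth factor, stress or nerve signal and falls soon after, so their RNA is also known to respond to how tissue is collected. Ligand-bound GR is known to repress many AP-1-driven genes by protein contact with Fos and Jun, and brown fat receives sympathetic signals through which cyclic AMP induces several immediate early genes.

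Signals were read from Agilent 1-colour arrays, on which 1 fluorescent dye reports the amount of RNA bound to a probe. The level of a gene is the log2 of its probe signal minus that of the 75th percentile of the array, so 0 is the 75th percentile and a step of 1 is a doubling. Levels of different genes come from different probes and are not compared. The 75th percentile signal was 298 to 497 in AdipoKO_BAT, 501 to 561 in CTL_BAT, 486 to 735 in AdipoKO_WAT and 725 to 1035 in CTL_WAT, and each array read 66.7% to 83.6% of its probes well above background. The arrays AdipoKO_WAT 1 and 2 were as alike as repeated spots of a single array and were counted as 1 sample, given as AdipoKO_WAT 1-2, which leaves n = 3 in that group and 15 samples in all. By the brightest of its 4 probes, Nr3c1 averaged 1.45 ± 0.21 in AdipoKO_BAT and 2.49 ± 0.16 in CTL_BAT (SD, n = 4 each), which is 48.8% of the control signal, and 1.53 ± 0.15 (n = 3) in AdipoKO_WAT and 2.19 ± 0.28 (n = 4) in CTL_WAT, or 63.4%. With this probe the groups did not overlap in either depot (exact permutation test, two-sided, p = 0.0286 each, the smallest that either design allows), while limma's adjusted p was 0.0814 in BAT and 0.210 in WAT. The other 3 probes differed by -1.89, -1.08 and -0.40 in BAT, where the groups overlapped with the last of them, and by 0.24, -0.38 and -0.19 in WAT, where the groups overlapped with all 3. The first of these was well above background on only 1 of 4 AdipoKO_BAT arrays. Which of the probes lie in a deleted part of the gene was not analysed here, and a probe outside such a part does not check the knockout. All 10 adipocyte markers, Adipoq among them, were well above background on every array.

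Promoter windows are shown for Fos, Jun, Fosl2 and Egr2, members with a motif match that later results single out. Windows of Egr1, Egr3 and Fosl1 are not described here, so nothing is said on motifs in them. Each is the 250 bases before an annotated start, from RefSeq (GRCm38.p6), written 5′ to 3′ in the direction of the gene, with the matched motif in capitals. The Fos window is chr12:85473640-85473889 on the plus strand, the Jun window chr4:95052223-95052472 on the minus strand, the Fosl2 window chr5:32136222-32136471 on the plus strand and the Egr2 window chr10:67537619-67537868 on the plus strand. Egr2 has 5 overlapping or neighbouring windows in that annotation, of which 3 hold both matches shown, 1 holds another CArG box alone and 1 holds no match.
Fos: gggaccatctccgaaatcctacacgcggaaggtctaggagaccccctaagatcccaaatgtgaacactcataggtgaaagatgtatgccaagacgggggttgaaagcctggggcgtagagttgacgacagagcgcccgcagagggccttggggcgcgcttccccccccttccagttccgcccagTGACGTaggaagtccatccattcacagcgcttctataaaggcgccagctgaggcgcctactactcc
Jun: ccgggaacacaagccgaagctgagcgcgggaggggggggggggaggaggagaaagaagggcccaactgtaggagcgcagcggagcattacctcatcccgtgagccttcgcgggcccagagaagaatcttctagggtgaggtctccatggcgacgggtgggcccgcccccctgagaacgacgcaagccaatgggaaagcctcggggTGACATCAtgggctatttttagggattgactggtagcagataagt
Fosl2: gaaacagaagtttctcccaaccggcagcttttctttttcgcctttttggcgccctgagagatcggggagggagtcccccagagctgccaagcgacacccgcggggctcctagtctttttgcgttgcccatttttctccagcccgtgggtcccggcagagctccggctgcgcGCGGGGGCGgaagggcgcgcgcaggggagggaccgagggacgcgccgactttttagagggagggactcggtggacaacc
Egr2: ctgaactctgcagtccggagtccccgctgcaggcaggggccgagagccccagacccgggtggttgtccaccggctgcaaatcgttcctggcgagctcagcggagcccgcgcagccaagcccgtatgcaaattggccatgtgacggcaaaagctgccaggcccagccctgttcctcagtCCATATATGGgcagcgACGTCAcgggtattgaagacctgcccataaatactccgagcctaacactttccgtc
Capitals mark TGACGT, the core of a cyclic AMP response element, in Fos, 66 to 61 bases before the start. In Jun they mark TGACATCA, an AP-1-like element, 45 to 38 bases before it, and in Fosl2 GCGGGGGCG, an Egr motif, 79 to 71 bases before it. In Egr2 the first run of capitals is a CArG box, the motif of serum response factor, and the second is TGACGT read on the minus strand.

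Both strands of all 32851 RefSeq promoter windows of 250 bases were searched. TGACGT was present in 6.47% of them, the CArG box in 1.47%, TGACATCA in 2.93% and GCGGGGGCG in 2.57%. The other motifs searched were TGACTCA (4.46%), GCGTGGGCG (0.536%) and the glucocorticoid response element in its strict palindromic form (0.00913%). GCGGGGGCG was also matched in the Fosb window, and Junb and Jund had no match in theirs. A match is a description of the letters and not a measured site.

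**Figure D1:**
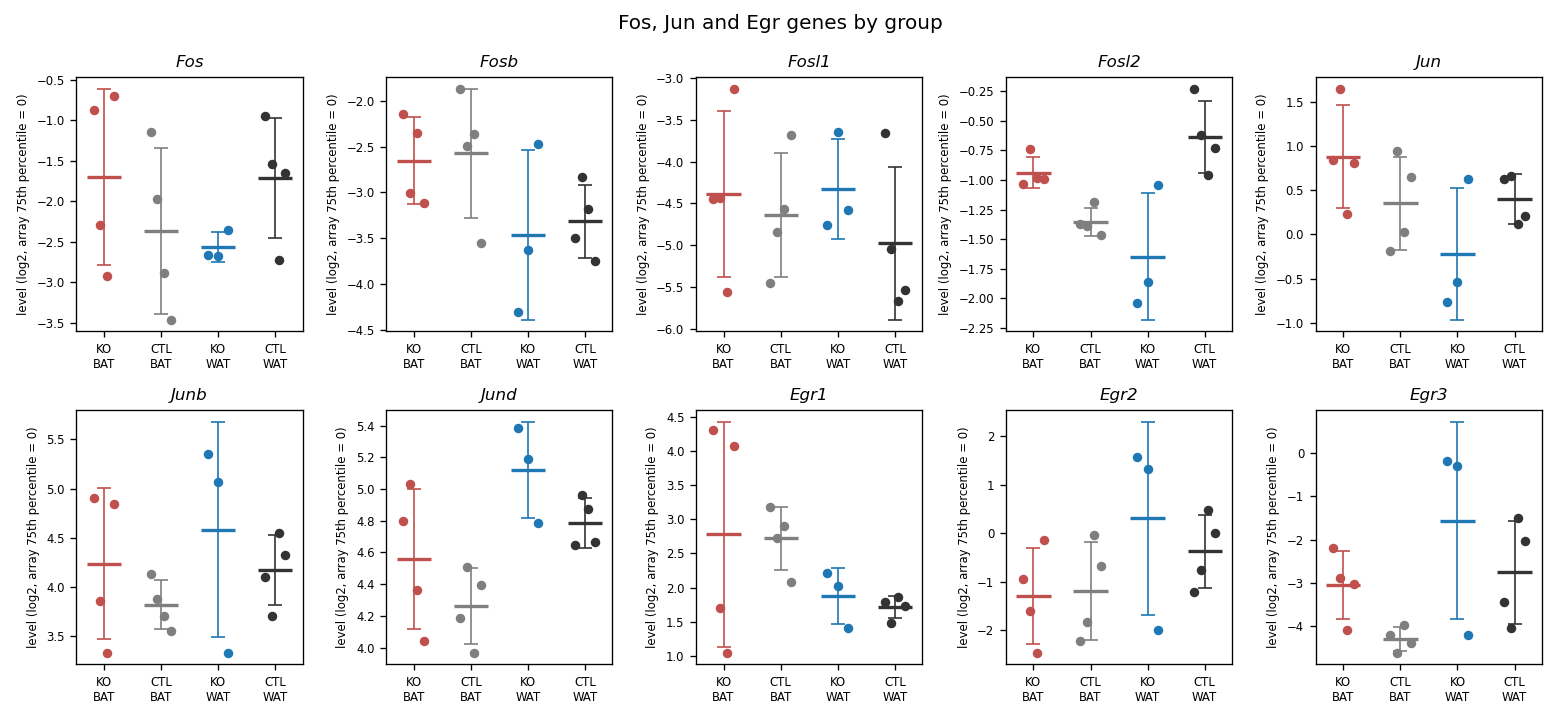
Level of each gene (log2, 0 is the 75th percentile of the array) in AdipoKO_BAT, CTL_BAT, AdipoKO_WAT and CTL_WAT. Points are samples, thick lines means and bars SD (n = 4, or n = 3 in AdipoKO_WAT); Fosl2 separates the groups within each depot, and Egr1, Egr2 and Egr3 spread widely within a knockout group.

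Loss of GR was set against control in each depot first. In BAT 0 of 10 members passed the threshold of adjusted p under 0.05 (limma with Benjamini-Hochberg adjustment over 25107 genes and probes), where 0.0159% of all features did, and 0 had an unadjusted p under 0.05, against 13.1%. In WAT 0 of 10 passed, where 0.0597% of all features did, and 1, Fosl2, had an unadjusted p under 0.05, against 17.9%. In BAT 8 members had higher means in the knockout, as did 60.2% of all features, with a median difference of 0.35, against 0.10 over all. In WAT 6 were higher, against 66.5% of all features, with a median of 0.25 against 0.24. Tests of the difference between the depots' effects called 0 of 10 members, where 0.00398% of all features passed, and 2 members, Fosl2 and Jun, had an unadjusted p under 0.05, against 10.4%. Throughout, a bulk tissue level cannot tell fewer cells of a type from less RNA per cell.

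Fosl2, which codes for Fra-2, an AP-1 partner of the Jun proteins, lies at chr5:32136472-32157840 and had the smallest adjusted p of the members in both depots. Its levels were -2.04, -1.87 and -1.04 in AdipoKO_WAT 1-2, 3 and 4, against -0.23, -0.62, -0.96 and -0.73 in CTL_WAT. All 3 knockout samples lay below all 4 controls, but sample 4 lay just under the lowest control. The difference was -1.01 ± 0.24 (SE), 2.02-fold lower, with limma's adjusted p = 0.157, so it did not pass the test. Its levels were -1.04, -0.74, -0.99 and -0.99 in AdipoKO_BAT and -1.37, -1.39, -1.19 and -1.46 in CTL_BAT. Here every knockout sample lay above every control, by a difference of 0.42 ± 0.22 with an adjusted p of 0.448 from limma. Groups that do not overlap were found for 7.69% of all features in WAT and 17.9% in BAT.

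The effects of the knockout on Fosl2 thus had opposite signs in the 2 depots, and the difference between them was 1.43 ± 0.32 (95% interval 0.73 to 2.13). Limma's adjusted p for it was 0.347, at rank 42 of 25107 features by p. Within the slides, each of which held 1 array of every group, the BAT difference was 0.36, 0.45, 0.39 and 0.48 on slides 1 to 4. The WAT difference was -1.64, -1.48, -0.08 and -1.25 on the same slides. Slides 2 and 4 held the AdipoKO_WAT arrays 2 and 1 that were counted as 1 sample, so these 4 WAT values come from 3 knockout samples. Under a slide block the WAT difference was -1.03 with an adjusted p of 0.290 from limma.

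A second Fosl2 probe, also well above background on all 16 arrays, did not share this pattern. It read -3.02, -1.80 and -2.48 in AdipoKO_WAT and -1.37, -3.08, -2.88 and -3.01 in CTL_WAT, and -2.46, -2.58, -3.04 and -2.77 in AdipoKO_BAT and -2.49, -2.56, -2.61 and -2.74 in CTL_BAT. Its groups overlapped in both depots. Its differences were 0.15 ± 0.38 in WAT and -0.11 ± 0.35 in BAT, and -0.26 ± 0.51 between the effects. Which parts of the transcript the 2 probes match was not analysed here, so every statement on Fosl2 rests on the brighter probe.

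**Figure D2:**
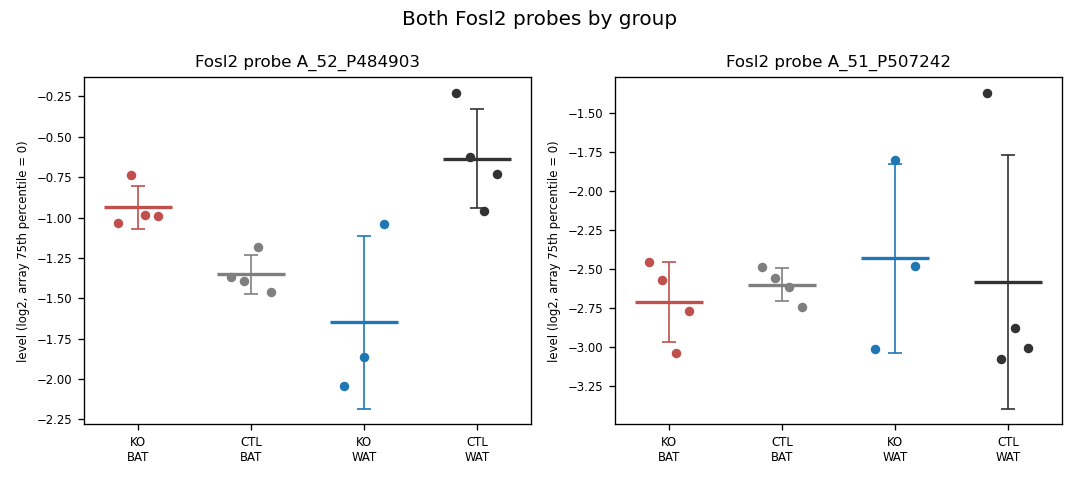
Level of Fosl2 (log2, 0 is the 75th percentile of the array) by its brighter probe A_52_P484903 and by A_51_P507242, in AdipoKO_BAT, CTL_BAT, AdipoKO_WAT and CTL_WAT. Points are samples, lines means and bars SD; in each depot the groups separate with the first probe and overlap with the second.

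Fos, the founding AP-1 subunit, lies at chr12:85473890-85477274 and was read from 10 spots per array. Its levels were -0.87, -2.30, -2.93 and -0.70 in AdipoKO_BAT, against -1.15, -1.97, -2.89 and -3.46 in CTL_BAT. Knockouts 1 and 4 were above every control, and knockouts 2 and 3 lay among the controls. The BAT groups thus overlapped, and the difference was 0.67 ± 0.57 (limma adjusted p = 0.680). Its levels were -2.67, -2.68 and -2.35 in AdipoKO_WAT, against -0.95, -1.54, -2.73 and -1.65 in CTL_WAT. The 3 knockout samples sat close together, and only control 3 was as low. The WAT difference was -0.85 ± 0.61 (limma adjusted p = 0.414).

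Fosb, whose stable splice form is known from the brain to accumulate under repeated stimulation, lies at chr7:19302696-19310118. Its levels were -2.15, -3.0, -2.36 and -3.12 in AdipoKO_BAT and -1.88, -2.50, -2.37 and -3.55 in CTL_BAT. In WAT they were -4.3, -3.63 and -2.47 in AdipoKO_WAT and -3.50, -2.84, -3.18 and -3.75 in CTL_WAT. The groups overlapped in both depots, with differences of -0.08 ± 0.42 in BAT and -0.15 ± 0.45 in WAT.

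Fosl1, which codes for Fra-1 and lies at chr19:5447698-5455938, was close to the background. Its probe was well above background on 1 of 4 arrays in AdipoKO_BAT, 2 in CTL_BAT, 3 in AdipoKO_WAT and 3 in CTL_WAT. Its levels ran over -5.56 to -3.13 in AdipoKO_BAT, -5.46 to -3.68 in CTL_BAT, -4.76 to -3.64 in AdipoKO_WAT and -5.66 to -3.66 in CTL_WAT. All 4 ranges overlapped, and at this signal no difference was detectable.

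Jun, which codes for c-Jun, the main target of the JNK kinases, lies at chr4:95049036-95052222 and was also read from 10 spots. Its levels were 0.84, 1.65, 0.23 and 0.81 in AdipoKO_BAT, against -0.19, 0.94, 0.02 and 0.65 in CTL_BAT. The groups overlapped, with a difference of 0.53 ± 0.36 (limma adjusted p = 0.582). Its levels were -0.76, -0.53 and 0.63 in AdipoKO_WAT 1-2, 3 and 4, against 0.63, 0.66, 0.12 and 0.21 in CTL_WAT. Samples 1-2 and 3 were below every control and sample 4 lay among the highest ones. The WAT difference was -0.63 ± 0.39 (limma adjusted p = 0.362), and the difference between the depots' effects was 1.15 ± 0.53 (adjusted p = 0.478, by limma).

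Junb, an AP-1 subunit that can hold c-Jun in check, lies at chr8:84976909-84978748. Its levels were 4.90, 3.86, 3.33 and 4.84 in AdipoKO_BAT and 4.13, 3.88, 3.71 and 3.55 in CTL_BAT. Knockouts 1 and 4 were above all controls, and knockout 3 was below them. In WAT the levels were 5.36, 5.06 and 3.33 in AdipoKO_WAT 1-2, 3 and 4 and 4.10, 3.71, 4.54 and 4.33 in CTL_WAT. Again the knockouts bracketed the controls, with sample 4 the lowest of the 7. The differences were 0.42 ± 0.43 in BAT and 0.41 ± 0.47 in WAT, and a second probe gave -0.01 ± 0.39 and 0.32 ± 0.43.

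Jund, the Jun family member usually expressed without stimulation, lies at chr8:70697739-70700616. Its levels were 4.80, 5.03, 4.36 and 4.04 in AdipoKO_BAT and 4.19, 4.51, 3.97 and 4.40 in CTL_BAT. In WAT they were 5.38, 5.19 and 4.79 in AdipoKO_WAT and 4.65, 4.96, 4.87 and 4.66 in CTL_WAT. The groups overlapped in both depots, and the differences were 0.29 ± 0.23 in BAT and 0.33 ± 0.24 in WAT.

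Egr1, a zinc finger factor induced by growth factor signalling, lies on chromosome 18. Its levels were 4.3, 1.70, 1.05 and 4.07 in AdipoKO_BAT, against 3.17, 2.72, 2.90 and 2.09 in CTL_BAT. Knockouts 1 and 4 were above every control and knockouts 2 and 3 below every control, a 9.52-fold range within 1 group. The difference of the means was 0.06 ± 0.59. In WAT the levels were 2.21, 2.02 and 1.42 in AdipoKO_WAT and 1.79, 1.49, 1.86 and 1.73 in CTL_WAT, a difference of 0.16 ± 0.64 with overlapping groups.

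Egr2, known for its part in myelination and in T cell anergy and in early adipocyte differentiation of cultured cells, lies at chr10:67534469-67542188. Its levels were 1.58, 1.34 and -1.99 in AdipoKO_WAT 1-2, 3 and 4, against -1.21, -0.75, 0.48 and 0.00 in CTL_WAT. Knockouts 1-2 and 3 were above all controls and knockout 4 below all of them, an 11.9-fold range. In BAT its levels were -0.94, -1.61, -2.47 and -0.14 in AdipoKO_BAT and -2.23, -1.84, -0.04 and -0.67 in CTL_BAT. The differences were 0.68 ± 0.83 in WAT and -0.09 ± 0.77 in BAT.

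Egr3, a close relative that is induced in activated lymphocytes, lies at chr14:70077317-70082613. Its levels were -0.18, -0.30 and -4.20 in AdipoKO_WAT 1-2, 3 and 4, against -3.46, -4.04, -1.49 and -2.03 in CTL_WAT. The knockouts again bracketed the controls, over a 16.3-fold range. In BAT its levels were -2.19, -2.88, -4.10 and -3.04 in AdipoKO_BAT and -4.21, -4.62, -3.98 and -4.40 in CTL_BAT. There 3 of 4 knockouts were above every control, with a difference of 1.25 ± 0.79 (limma adjusted p = 0.540), and the WAT difference was 1.19 ± 0.86 (limma adjusted p = 0.412). A second Egr3 probe was well above background on 1 array and was not used.

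**Figure D3:**
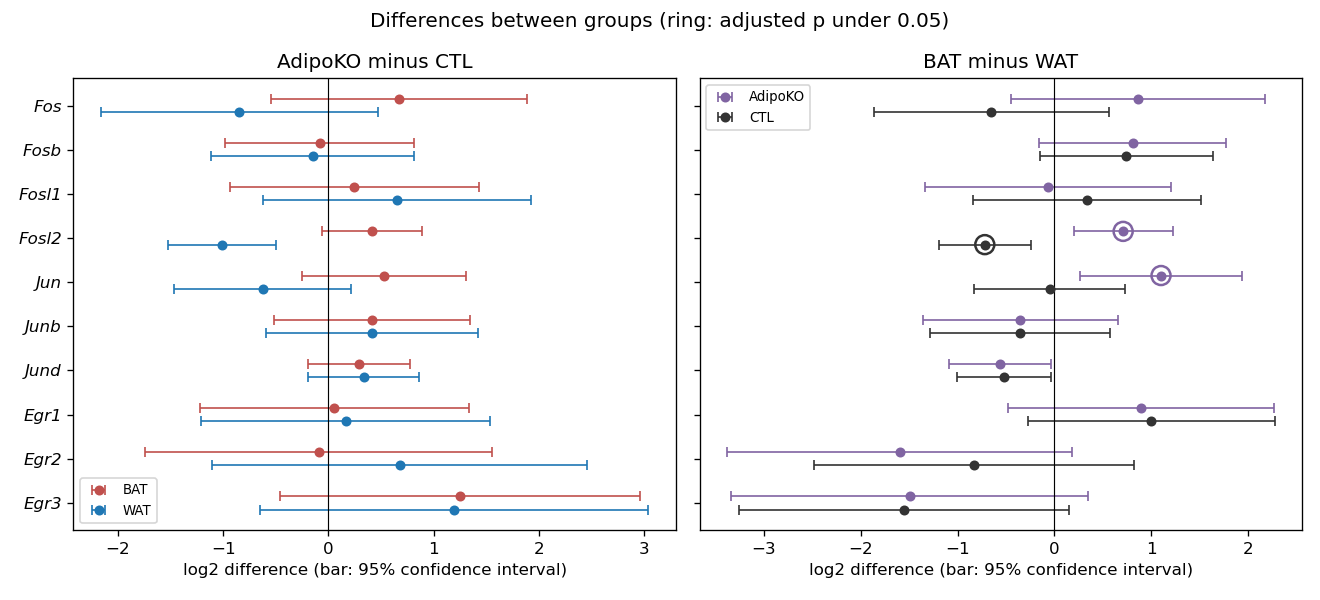
Differences of group means (log2) for each gene, AdipoKO minus CTL on the left in BAT and in WAT, and BAT minus WAT on the right in AdipoKO and in CTL mice. Bars are 95% confidence intervals of the limma fit and rings mark an adjusted p under 0.05: no gene is ringed on the left, and on the right Fosl2 is ringed in both genotypes with opposite signs, and Jun in AdipoKO.

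In WAT 1 knockout sample stood apart from the other 2. For Egr1, Egr2, Egr3 and Junb, AdipoKO_WAT 1-2 and 3 lay above all 4 controls and AdipoKO_WAT 4 below all 4. For Jun and Fosl2, AdipoKO_WAT 1-2 and 3 were below all 4 controls and AdipoKO_WAT 4 was the highest knockout. With AdipoKO_WAT 4 left out, 3 members passed in WAT. Egr3 was higher by 2.52 (limma adjusted p = 0.00901). Fosl2 and Jun were lower, with differences of -1.32 (adjusted p = 0.000567, limma) and -1.05 (adjusted p = 0.0444, limma). Only AdipoKO_WAT 1-2 and 3 then stood for the knockout, and the sample removed was the one set apart above in these genes. The same removal called 9235 of all features in WAT (36.8%), against 15 with it, so that 3 of 10 members is near the share of all features. The difference between the depots' effects then passed for Fosl2 (1.73, limma adjusted p = 0.00221) and Jun (1.58, limma adjusted p = 0.0447), 2 of 10 members, where 16.2% of all features passed.

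Marker genes of other cell types moved with the same samples. The 9 B cell markers, all measured and all 9 well above background on every WAT array, had summed levels (log2 of the summed scaled signals) of 7.51, 7.26 and 0.83 in AdipoKO_WAT 1-2, 3 and 4, against 2.45, 2.55, 6.25 and 5.65 in CTL_WAT. Of 11 T and NK cell markers 10 were measured, with summed levels of 6.47, 6.19 and 1.07 in AdipoKO_WAT and 1.70, 1.14, 5.27 and 4.71 in CTL_WAT. The 10 adipocyte markers summed to 9.17, 9.76 and 11.12 in AdipoKO_WAT and 10.72, 10.70, 10.36 and 10.16 in CTL_WAT. Egr2, Egr3, Junb and Egr1 were highest, and Jun and Fosl2 lowest, in the 2 samples with the highest B cell levels. The 9 intestinal epithelium markers summed to 1.88, 2.06 and 2.77 in AdipoKO_WAT and 8.71, 1.84, 2.72 and 7.52 in CTL_WAT, highest in controls 1 and 4. The 6 mesothelial markers, all well above background on every WAT array, summed to 0.15, 1.18 and 4.01 in AdipoKO_WAT 1-2, 3 and 4, against 6.14, 5.52, 4.09 and 5.09 in CTL_WAT. The 3 knockouts lay below the 4 controls, and the 7 samples ran in the same order as for Fosl2. Of 7 mast cell markers 5 were measured, with summed levels of -1.31, -0.57 and 0.71 in AdipoKO_WAT and 2.17, 2.56, 1.41 and 1.63 in CTL_WAT. All 5 were well above background on every CTL_WAT array, but only 2 on every AdipoKO_WAT array. There Cpa3, Mcpt4 and Tpsb2 were well above background on 3 of 4 arrays. The 8 macrophage markers summed to 3.90, 3.66 and 3.46 in AdipoKO_WAT and 4.43, 4.96, 3.92 and 4.05 in CTL_WAT. Both lists, like Fosl2, were lower in every knockout than in every control. The adipocyte, brown adipocyte, endothelial, fibroblast and skeletal muscle sums were lower in AdipoKO_WAT 1-2 and 3 than in every control, and AdipoKO_WAT 4 was above every control for all but the fibroblast list. The median of the markers' deviations from their means over the 15 samples was also taken. By it the muscle list read -4.01, -2.60 and -2.43 in AdipoKO_WAT and -2.41, -2.98, -3.15 and -2.93 in CTL_WAT. The brown adipocyte list in AdipoKO_WAT 4 (-2.20) was then below CTL_WAT 2 (-2.07). Of the 16 muscle markers 10 had higher means in AdipoKO_WAT and 6 lower. The part of all these cell types in the members' levels was not tested.

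**Figure D4:**
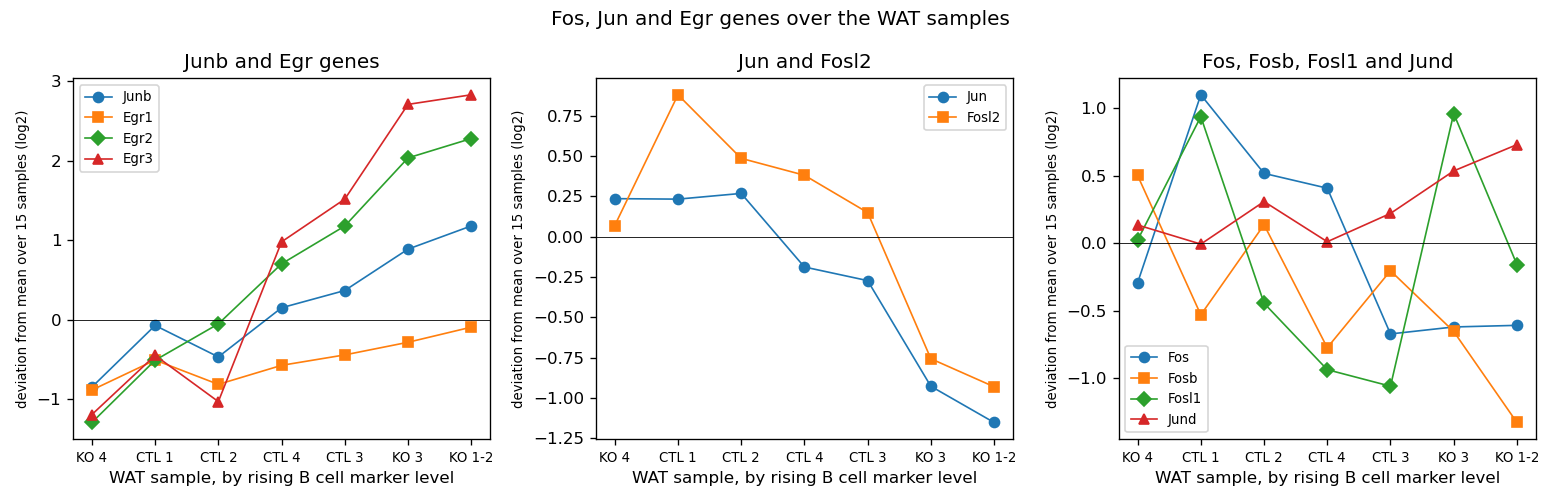
Deviation of each gene from its mean over 15 samples (log2) in the 7 WAT samples, placed from left to right by rising summed level of 9 B cell markers. KO is AdipoKO_WAT and CTL is CTL_WAT; Junb, Egr1, Egr2 and Egr3 end highest in KO 3 and KO 1-2, where Jun and Fosl2 are lowest.

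The members were correlated with each other over the samples of a depot, with 90 relations in all (Pearson's r and Spearman's rho, exact permutation tests, two-sided, Benjamini-Hochberg adjustment over the 90), and 10 had an adjusted p under 0.05 for r. The share among pairs of other genes was not analysed here, so this count is not shown to be particular to the members. Over the 7 WAT samples Junb and Egr3 had r = 0.97 (exact p = 0.000198, adjusted p = 0.0134) and rho = 1.0 (exact p = 0.000397), and r = 0.95 without the 2 samples farthest from the median. Egr2 and Egr3 had r = 0.96 (exact p = 0.00198, adjusted p = 0.0223) and rho = 0.96 (exact p = 0.00278), and r = 0.95 without 2 samples. Jun and Egr3 ran the other way, with r = -0.96 (exact p = 0.000595, adjusted p = 0.0134) and rho = -0.96 (exact p = 0.00278), and r = -0.97 without 2 samples. The samples differ in cell make-up, as described above, and the relations pool both genotypes, since 3 or 4 samples of 1 genotype are too few for a value of their own. Over 15 samples of both depots with group means removed, r was 0.86 for Junb and Egr3 and 0.83 for Egr2 and Egr3. It was weaker for Jun and Egr3, at -0.54.

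In BAT, over 8 samples, Fos and Junb had r = 0.91 (exact p = 0.000471, adjusted p = 0.0134) and rho = 0.95 (exact p = 0.00114), and r = 0.90 without 2 samples. Egr1 and Junb had r = 0.91 (exact p = 0.00193, adjusted p = 0.0223) and rho = 0.88 (exact p = 0.00724), and r = 0.82 without 2 samples. That rho did not pass after adjustment. A smaller exact p for rho, 0.00675 for Egr1 and Jun in WAT, had an adjusted p of 0.0652. Over 15 samples of both depots with group means removed, r was 0.37 for Fos and Junb and 0.77 for Egr1 and Junb. Knockouts 1 and 4 carried the highest Fos, Junb and Egr1 levels of the 4 knockouts, and knockout 3 the lowest. The 16 skeletal muscle markers, all well above background on every BAT array, summed to 8.12, 10.38, 10.19 and 8.10 in AdipoKO_BAT and 8.06, 8.58, 7.96 and 5.45 in CTL_BAT, and so were lowest in knockouts 1 and 4 among the knockouts. The controls did not run that way: control 4, with the lowest muscle sum, also had the lowest Fos, Junb and Egr1 levels of the controls. The 8 endothelial markers summed to 7.48, 7.25, 6.52 and 6.50 in AdipoKO_BAT and 6.39 to 6.43 in CTL_BAT. The T and NK cell sums were 0.54 to 1.53 in AdipoKO_BAT and 0.22 to 0.30 in CTL_BAT, and the intestinal sums, with Cdh17 and Cdx2 not well above background on any BAT array, were 3.58 to 4.58 in AdipoKO_BAT and 2.95 to 3.42 in CTL_BAT. The sums of these 3 lists, like Fosl2, were higher in every AdipoKO_BAT sample than in every CTL_BAT sample. By the median deviation of its markers the intestinal list overlapped, at -0.20, -1.06, -1.27 and -1.28 in AdipoKO_BAT and -1.41 to -0.48 in CTL_BAT. Of its 9 markers 6 had higher means in AdipoKO_BAT and 3 lower. The part of any of these lists in the members' levels was not tested.

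Spread within a group was large for several members in BAT. In AdipoKO_BAT the median SD of the members was 0.78, against 0.33 over all named genes, and in CTL_BAT it was 0.49, against 0.16. In WAT the medians were closer, 0.67 against 0.60 in AdipoKO_WAT and 0.38 against 0.34 in CTL_WAT. Egr1 in AdipoKO_BAT had an SD of 1.65, and 0.264% of 16652 named genes were at least as variable there. Fos had an SD of 1.09 in AdipoKO_BAT and 1.02 in CTL_BAT, with 2.86% and 1.46% of genes at least as variable. Fosl2 was among the steady ones, with SDs of 0.13 in AdipoKO_BAT and 0.12 in CTL_BAT, which 86.6% and 64.5% of genes equalled or exceeded.

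**Figure D5:**
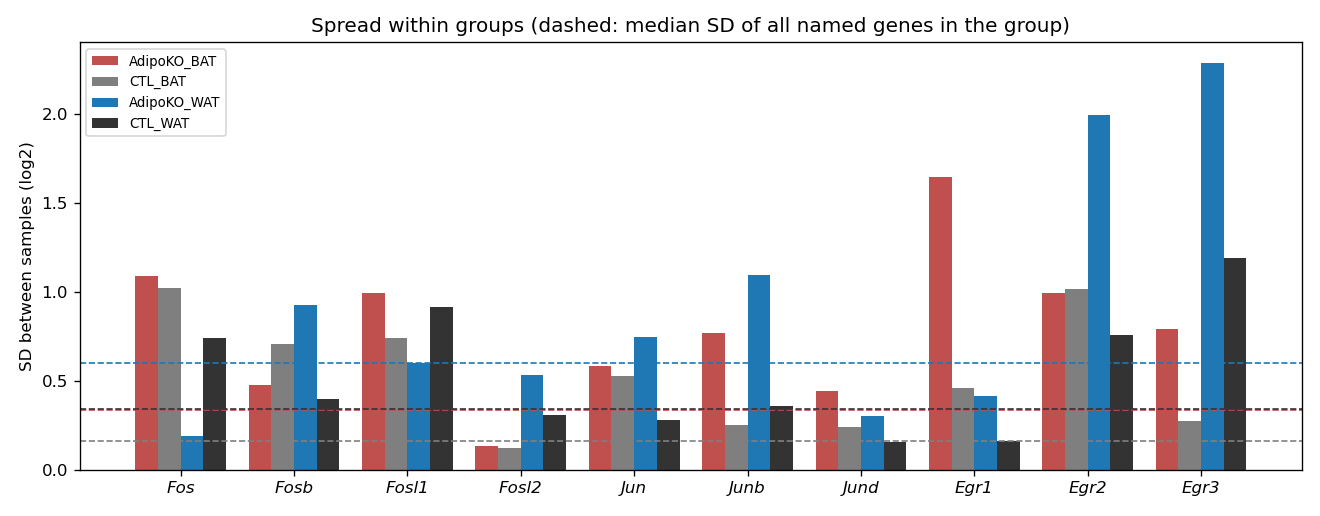
SD between samples (log2) of each gene in AdipoKO_BAT, CTL_BAT, AdipoKO_WAT and CTL_WAT, as bars from 0, with dashed lines at the median SD of all named genes in the same group. Most Fos and Egr bars rise above the dashed lines in BAT, with Egr1 in AdipoKO_BAT at 1.65.

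BAT was then set against WAT within each genotype. In control mice 1 of 10 members passed, and it was lower in BAT, where 33.4% of all features passed and 14.3% were lower, and the median member difference, BAT minus WAT, was -0.44, against 0.11 over all. Fosl2 was lower in BAT, with a difference of -0.72 ± 0.22 and limma's adjusted p = 0.0221, and every CTL_BAT sample lay below every CTL_WAT sample. The groups also did not overlap for Jund (-0.52 ± 0.23, limma adjusted p = 0.0935) and Egr1 (1.0 ± 0.59, limma adjusted p = 0.222), so 3 of 10 members separated, where 43.3% of all features did. Leaving out CTL_WAT 1, CTL_BAT 1, 2 or 4 raised the adjusted p of Fosl2 to between 0.0504 and 0.0621 (limma), and the mean of both probes gave -0.37 (limma adjusted p = 0.295).

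In AdipoKO mice 2 of 10 members passed, both higher in BAT, where 30.6% of all features passed and 16.7% were higher. Fosl2 was higher in BAT by 0.71 ± 0.24 (limma adjusted p = 0.0360), and Jun by 1.10 ± 0.39 (limma adjusted p = 0.0465). The second Fosl2 probe had the opposite sign (-0.28 ± 0.38, limma adjusted p = 0.638 over 33050 probes), and the mean of both probes gave 0.22 (limma adjusted p = 0.609). The groups did not overlap for Fosl2 alone, 1 of 10, against 25.4% of all features, and they all but touched: the lowest AdipoKO_BAT sample and AdipoKO_WAT 4 both read -1.04. A slide block in the fit gave limma adjusted p-values of 0.0626 for Fosl2 and 0.0817 for Jun. On slides 1 to 4 the difference of Jun was 1.38, 2.38, -0.40 and 1.60, and that of Fosl2 was 0.83, 1.36, 0.05 and 0.99, where slides 2 and 4 share 1 AdipoKO_WAT sample. Slide 3, which carried AdipoKO_WAT 4, gave the smallest values for both genes. Over 15 fits that each left out 1 sample, Fosl2 passed in 10, with adjusted p from 0.000785 to 0.173, and Jun in 4, with adjusted p from 0.00470 to 0.195 (limma). The Fosl2 call ended without AdipoKO_WAT 1-2 or 3 or without AdipoKO_BAT 2, 3 or 4. The Jun call ended without any 1 of AdipoKO_WAT 1-2 or 3, AdipoKO_BAT 1, 2 or 4, CTL_BAT 3 or 4, or a CTL_WAT sample.

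The levels of a gene in the 4 groups can be put in order, although most neighbours lay within their spread. Fosl2 averaged -0.94 ± 0.13 in AdipoKO_BAT, -1.35 ± 0.12 in CTL_BAT, -1.65 ± 0.53 in AdipoKO_WAT and -0.63 ± 0.31 in CTL_WAT (SD). From high to low its groups ran CTL_WAT, AdipoKO_BAT, CTL_BAT and AdipoKO_WAT, and of the neighbours in that order AdipoKO_BAT and CTL_BAT did not overlap while the other pairs did. Jun ran from AdipoKO_BAT (0.88 ± 0.58) through CTL_WAT (0.40 ± 0.28) and CTL_BAT (0.35 ± 0.53) to AdipoKO_WAT (-0.22 ± 0.75), each overlapping the next. Jund ran from AdipoKO_WAT (5.12 ± 0.30) through CTL_WAT (4.79 ± 0.16) and AdipoKO_BAT (4.56 ± 0.44) to CTL_BAT (4.26 ± 0.24), each again overlapping the next. Junb, Egr2 and Egr3 were also highest in AdipoKO_WAT (4.58 ± 1.10, 0.31 ± 2.0 and -1.56 ± 2.29), and Egr1 in AdipoKO_BAT (2.78 ± 1.65), with neighbouring groups overlapping for all 4.

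Other genes of the same response were read from lists. Of 40 other immediate early genes 37 were measured. In BAT 31 of the 37 had higher means in the knockout, as did 60.2% of all features, with a median of 0.35. Of the 37, 1 passed, where 0.0159% of all features did: Nr4a2, an orphan nuclear receptor induced by cyclic AMP, rose by 1.63 ± 0.23 (limma adjusted p = 0.0487). Its call held in 3 of the 15 fits that each left out 1 sample, with adjusted p from 0.00944 to 0.211 (limma). The next by adjusted p were Klf6 (0.82, limma adjusted p = 0.190) and Dusp6 (0.69, limma adjusted p = 0.208). In WAT 24 of 37 were higher, against 66.5% of all features, and 0 passed, with the smallest adjusted p for Rhob (-1.19), Ccn2 (-1.13) and Ier2 (0.82), at 0.223, 0.260 and 0.272 by limma. The same shares of all features stand beside the counts of the lists below.

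Between depots, genes of this list passed in both directions. Of all features 33.4% passed in controls and 30.6% in AdipoKO mice, the shares to set beside the depot counts of this list and those below. In control mice 7 of 37 were higher in BAT (Nr4a2, Trib1, Nr4a1, Sik1, Klf10, Ier3 and Maff) and 7 lower (Ccn2, Klf6, Ptgs2, Npas4, Dusp2, Myc and Gadd45a). Nr4a1 was higher by 2.99 and Nr4a2 by 2.61, while Ccn2 differed by -3.07 and Dusp2, a phosphatase of lymphoid cells, by -3.82. In AdipoKO mice 9 were higher in BAT (Nr4a2, Nr4a1, Trib1, Sik1, Rhob, Klf10, Dusp6, Ier3 and Dusp1) and 6 lower (Socs3, Dusp2, Myc, Ccn2, Tnfaip3 and Btg1). The largest of these were Nr4a2 at 4.11 and Dusp2 at -4.64.

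Of 19 bZIP genes whose proteins can pair with Fos or Jun or act beside them, 17 were measured and 0 passed for the knockout in either depot. In BAT 11 of 17 had higher means. The smallest adjusted p there were those of Maf (1.08, limma adjusted p = 0.127), Maff (-0.95) and Atf2 (-0.93). In WAT 5 of 17 had higher means, and the genes with the smallest adjusted p, Nfe2, Maff and Cebpb, were lower. Between depots 13 differed in controls, 6 higher in BAT (Cebpb, Ddit3, Atf2, Nfe2l1, Atf4 and Maff) and 7 lower (among them Maf, Batf3, Batf and Nfe2). Cebpb, a driver of fat cell differentiation, was higher by 2.94, and Batf, a lymphocyte AP-1 partner, differed by -3.29. In AdipoKO mice 4 were higher (Cebpb, Ddit3, Nfe2l1 and Atf2) and 3 lower (Batf3, Maf and Batf).

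Of 23 kinases and factors upstream of the members 22 were measured, and 0 passed for the knockout in either depot, with 11 of 22 higher in BAT and 14 of 22 in WAT (smallest adjusted p for Creb1, Map2k7 and Elk4). In control mice 10 were higher in BAT (among them Rps6ka5, Prkaca, Mapk9, Map2k4, Map2k1 and Crem) and 5 lower (Rps6ka3, Mrtfa, Srf, Mapk7 and Rps6ka1). Prkaca, the catalytic subunit of the cyclic AMP-dependent kinase, was higher in BAT by 1.77 in controls and by 2.35 in AdipoKO mice. In AdipoKO mice 4 were higher (Prkaca, Rps6ka5, Map2k2 and Crem) and 2 lower (Mrtfa and Rps6ka1). Nab2, a corepressor of Egr proteins, was lower in BAT in controls (-1.46, limma adjusted p = 0.00579), and Nab1 did not pass in any comparison.

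Of 18 known AP-1 target genes 16 were measured, and 0 passed for the knockout in either depot, with 9 of 16 higher in BAT (median 0.04) and 3 of 16 higher in WAT (median -0.64). Mt2 differed by -1.74 in BAT and -1.70 in WAT (limma adjusted p = 0.177 in each), and Mt1 by -1.40 in WAT. These metallothionein genes, which GR is known to induce directly, were among those with the smallest adjusted p. So were S100a4, which was higher in BAT, Ccl2, which was lower there, and Mmp3, which was lower in WAT. In control mice 2 were higher in BAT (Mt2 and Mt1) and 10 lower (S100a4, Ccl2, Plaur, Cd44, Timp1, Itgax, Ptgs2, Mmp3, Plau and Mmp9). In AdipoKO mice Mt1 and Mt2 were again higher and 6 were lower (Ccl2, Cd44, Plaur, S100a4, Itgax and Timp1). In the tests of the difference between the depots' effects 0 genes passed in any of these lists, and Nr4a2 (1.5), Maf (1.45) and S100a4 (1.47) each had a limma adjusted p of 0.347.

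The genes whose deviations from the group means were most like those of a member were found among 16642 named genes over the 15 samples, as a description. For Jun they were Atf3 (r = 0.93), Ccn2 (0.92) and Epha2 (0.89), of which Atf3 and Ccn2 are themselves on the lists of immediate early genes. Egr3 was matched by Tbc1d1, Rab37 and Pold1 (0.98 each), Egr2 by Pik3ip1, Meaf6 and Zfp143 (0.94 to 0.93), and Egr1 by Csta2, 4930577N17Rik and Gcfc2 (0.90 to 0.85). Junb was matched by Lrrc75b, Setd4 and Tnip1 (0.97 to 0.93) and Jund by Plekho2, Sde2 and Tsn (0.93 to 0.89). Fosl2 was matched by Sdhd, Mapt and Foxo6 (0.96 to 0.95), Fos by Eps8l1, Iqce and Top3a (0.84 to 0.82), Fosb by Olfr63, Pcnx2 and Ghrh (0.94 to 0.93), and Fosl1 by Crp, Frmd3 and Mgat3 (0.92 to 0.86). The samples share their depot dissection and array scaling, which can move many genes together.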

How the data were processed

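Total RNA (column extraction, per the labels' protocols) of 16 female adipose samples was hybridised to 1-colour Cy3 arrays, 4 slides with 1 array of each group. Each group kept 1 array position, so position and group cannot be told apart. Images were extracted with Agilent Feature Extraction 12.0.0.7, per the file headers. Per the file headers, the deposited processed signal is an intensity after background subtraction and spatial detrending of each array, unscaled across arrays; median signal and background are raw intensity columns. The values of the deposited series table match a probe's averaged processed signal (largest relative difference 5e-06). The deposited flag columns hold 0 or 1.

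Flagged outlier spots were dropped and repeated spots averaged. The level was the log2 of that signal less its 75th percentile on the array. Probes well above background on at least 3 arrays of at least 1 group were kept. Accessions were matched to RefSeq (GRCm38.p6), which named 28223 of 41174 probes. The probe with the highest mean level stood for a gene. This left 16677 named genes and 8430 unnamed probes. AdipoKO_WAT 1 and 2 differed by 0.982 times the spot noise, against at least 1.93 times in the other pairs, and were averaged.

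Group means were fitted with limma 3.58.1 (11 residual degrees of freedom; R 4.3.3, and version 1.17.8 of data.table). Tests were two-sided, p-values were Benjamini-Hochberg adjusted across features in each comparison, and the threshold was 0.05. The fit was tested on simulated data. The labels call the samples biological replicates, and p-values measure the spread between them; the number of arrays limits the precision. Comparisons share samples: each control group serves a genotype and a depot comparison. Alternatives covered scaling, background correction, the dim probe filter, probe choice, blocks, a muscle covariate and samples left out.

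Genes named beside the 10 members are, from each list, those past the threshold and, where fewer than 3 passed, the 3 with the smallest adjusted p, and for each member the 3 genes with the highest correlation of deviations from group means; some that meet this rule are not reported here. The members, gene lists and marker lists were chosen with earlier results of these data known.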

Additional observations from a re-analysis of the deposited data

Results flagged for a closer look

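In AdipoKO_BAT, Fosl2 had 1 sample apart from the other 3: knockout 2 at -0.74, with the rest between -1.04 and -0.99. The gap from that sample to its nearest neighbour was 0.833 of the range of the group, just over Dixon's 95% limit for 4 samples. Of 30 such groups of the members tested, this was the only one past the limit, and chance alone passes about 1 in 20. The sample lies toward higher Fosl2, and the other 3 knockouts were also above every CTL_BAT sample.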

How the results depend on the processing

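Of the members, Fosl2 and Jun were the only ones called with the settings reported. The array count sets the limit: with 3 or 4 samples a group, a difference that did not pass is not shown to be absent. Fosl1 was near background. In WAT 0 members and 15 of all features passed. The count of all features became 278 with all 16 arrays as separate samples (1 member), 61 with median scaling, 24 with quantile normalization, 1 with normexp background correction, 4 without CTL_WAT 1 and 4, and 0 with only the groups compared. In BAT 0 members passed under any alternative, and the count of all features, 4, became 22 with all arrays separate, 12 with only the groups compared, and 0 with normexp, with no filter on dim probes, with the muscle covariate, without CTL_WAT 1 and 4, and without AdipoKO_BAT 1 and 2. For the difference between the depots' effects, 1 feature became 2 with all arrays separate, with quantile normalization and with median scaling, and 0 with normexp, without CTL_WAT 1 and 4 and without AdipoKO_BAT 1 and 2. Between depots in controls, 1 member became 0 with the mean of all probes, median scaling, the muscle covariate or without CTL_WAT 1 and 4, 2 without AdipoKO_BAT 1 and 2, and 4 with only the groups compared (Egr1, Egr3, Fosl2 and Jund). The count of all features, 8381, became 5272 without CTL_WAT 1 and 4 and 1925 with the covariate. In AdipoKO mice, 2 members became 3 with all arrays separate or quantile normalization, 1 with the mean of all probes, without CTL_WAT 1 and 4 and without AdipoKO_BAT 1 and 2, and 0 with normexp, no filter, only the groups compared or the covariate, and 7683 features became 3627 with normexp, 2990 with only the groups compared and 78 with the covariate. The summed level of the 16 muscle markers was 5.45 to 10.38 in BAT and 2.48 to 4.84 in WAT, so that covariate moves with depot.

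Leaving out a sample in turn gave 0 to 3 members and 7 to 9235 features in WAT, 0 members and 0 to 84 features in BAT, 0 to 2 members and 1 to 4055 features for the difference of effects, 0 to 2 members and 6622 to 10597 features between depots in controls, and 0 to 6 members and 4497 to 11456 features in AdipoKO mice; the highest counts came without AdipoKO_WAT 4. Without AdipoKO_WAT 1-2 the counts of all features were 8 in WAT, 1 in BAT and 4728 between depots in AdipoKO mice, with 0 members called there. The cause was not tested.

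Same-numbered samples of different groups had correlations of -0.47 to 0.31 of their deviations (median 0.01, 24 pairs), against -0.61 to 0.66 in 60 other pairs. These pairs mix genotypes, so the ranges cannot show whether WAT and BAT of a number came from 1 mouse. In controls same-numbered WAT and BAT samples had 0.18, 0.10, 0.05 and 0.05, each the highest of that WAT sample with CTL_BAT. In AdipoKO mice they had -0.27 for number 3, 0.12 for number 4, and -0.01 and -0.03 for WAT 1-2. Pairing of depots by mouse was not tested further. With the replicate block 9 features passed in WAT, 0 in BAT and 0 for the difference of effects, and 1 member between depots in AdipoKO mice. With the slide block these counts were 9, 0, 0 and 0.

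Signs turned in 93 of 1485 refitted differences of members, 87 of them where the difference was within 1 SE, and 0 where either value was called. They also turned in 15 of 4154 refitted differences of the other genes named, 2 of them called with the settings reported: Ier3 between depots in each genotype, with the muscle covariate. All differences below are log2. The cause was not tested. The turned values of members and of the other genes are listed by setting. With all arrays separate they were Nab2 0.16 in WAT, and Egr3 -0.29 and Junb -0.19 for the difference of effects, and Fosl1 0.042 between depots in AdipoKO mice. With the replicate block they were Nab2 0.0091 in WAT, and Junb -0.038 for the difference of effects. With the slide block they were Nab2 0.037 in WAT, and Junb -0.011 for the difference of effects. With quantile normalization they were Egr3 -0.044 and Junb -0.091 for the difference of effects, and Nab1 -0.13 and Nr3c1 -0.011 between depots in controls, and Fosl1 0.20 between depots in AdipoKO mice. With median scaling they were Egr1 -0.086 in BAT, and Junb -0.0015 for the difference of effects, and Jun 0.10 between depots in controls, and Fosl1 0.080 and Nr3c1 0.071 between depots in AdipoKO mice. With normexp background correction they were Fosb 0.055 in WAT, and Egr1 -0.10, Egr2 0.062 and Fosb 0.19 in BAT, and Fosl1 0.40 and Junb -0.18 for the difference of effects, and Fosl1 -0.19 and Jun 0.043 between depots in controls, and Fosl1 0.21 between depots in AdipoKO mice. With the mean of all probes they were Junb -0.16 for the difference of effects. Without AdipoKO_WAT 1-2 they were Fosb 0.27 in WAT, and Egr1 0.057, Fosb -0.35 and Jund 0.090 for the difference of effects, and Junb 0.036 between depots in AdipoKO mice. Without CTL_WAT 1 and 4 they were Junb -0.041 and Jund 0.090 for the difference of effects. Without AdipoKO_BAT 1 and 2 they were Egr1 -0.16 and Jund -0.064 in BAT, and Egr3 -0.46, Fosb -0.013 and Junb -0.14 for the difference of effects, and Nr3c1 0.077 between depots in AdipoKO mice. With the muscle covariate they were Egr2 0.88 in BAT, and Egr1 0.59, Egr2 0.27, Fosb -0.44 and Fosl1 0.19 for the difference of effects, and Egr2 1.26, Fosb -0.27, Ier3 -0.020 and Junb 0.55 between depots in controls, and Egr2 1.53, Egr3 0.32, Fosb -0.70, Fosl1 1.72, Ier3 -0.38, Junb 1.01, Nab2 0.19 and Nr3c1 0.42 between depots in AdipoKO mice. Leaving out each array in turn gave ranges across 0, which were Fosb -0.65 to 0.0095 and Nab2 -0.23 to 0.55 in WAT, and Egr1 -0.45 to 0.63, Egr2 -0.48 to 0.30, Fosb -0.41 to 0.15, Fosl1 -0.17 to 0.64 and Nab1 -0.0058 to 0.30 in BAT, and Egr1 -0.61 to 0.47, Egr3 -1.26 to 0.69, Fosb -0.26 to 0.57, Junb -0.62 to 0.30, Jund -0.21 to 0.13 and Nab2 -0.095 to 0.68 for the difference of effects, and Jun -0.24 to 0.13 between depots in controls, and Fosl1 -0.49 to 0.32 between depots in AdipoKO mice.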
